A study of Mus musculus with 12 samples.

Results

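The BCL2 survival genes and the effector genes BAX and BAK were described in a mouse thymic T lymphoma line, BW5147, as 17 probe sets among 22626 on each array. A probe set, a group of oligonucleotides read as 1 signal, was taken when the platform annotation gave it a single symbol equal to Bcl2, Bcl2l1, Bcl2l2, Mcl1, Bax or Bak1, 6 genes in all. Probe sets were found for 5 of these: 1 for Bcl2, 4 for Bcl2l1, 4 for Bcl2l2, 6 for Mcl1 and 2 for Bak1. Bax had no probe set under this rule and was not analysed here. This rule uses no measured value, but the 6 genes were listed with earlier results of these data known.

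BCL2-family proteins decide at the mitochondrial outer membrane whether a cell enters apoptosis. BCL2, BCL-XL (the long product of Bcl2l1), BCL-W (Bcl2l2) and MCL1 hold the pore-forming effectors BAX and BAK in check, and BH3-only proteins such as BIM (Bcl2l11) bind and neutralise these guardians or activate the effectors directly. Glucocorticoids kill thymocytes and many lymphoid tumour cells through this pathway, in which BIM is a known mediator. MCL1 protein is short-lived and is regulated to a large extent after transcription, which RNA measurements do not show.

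Cells were treated for 8 h in 6 groups of 2 arrays, 12 in all. The groups were Dex+IL-9, Dex+CCL1, Dex, IL-9, CCL1 and unstimulated, where Dex is the synthetic glucocorticoid dexamethasone at 100 ng/ml, IL-9 is the T cell cytokine interleukin-9 at 100 U/ml and CCL1 is the chemokine that binds the receptor CCR8, also at 100 U/ml. All groups are the same single line, so the data describe 1 tumour. The 2 arrays of a group are numbered in the labels, which call them duplicates without naming separate cultures. The spread behind each p-value is thus that between arrays, possibly only technical, and their number limits the precision. Values are MAS5 signals, the linear intensity that Affymetrix software gives a probe set, and differences are log2 differences of signal + 16 with standard error (SE). Since probe sets differ in efficiency, each was compared only with itself. Where 1 group of 2 arrays lay above or below another, the share of all probe sets doing so was not counted. In RNA of whole cultures, fewer cells with a transcript and less transcript per cell cannot be told apart.

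Labels and values disagreed for some arrays. Tsc22d3, the glucocorticoid-induced gene encoding GILZ, had signals of 260 to 422 in the 6 Dex arrays. In arrays labelled without Dex it had 347, 230 and 330 in unstimulated 1, IL-9 1 and CCL1 1, but 109, 58.7 and 70.8 in unstimulated 2, IL-9 2 and CCL1 2. Of the 10 glucocorticoid targets listed, Fkbp5, Ddit4 and Dusp1 followed the same split. Mt1, Mt2 and Per1 did not in all arrays. Mt2 had 2661 in CCL1 1 and 3276 in CCL1 2, and Per1 had 44.7 and 46.7 there. Mt1 had 3419 in IL-9 2, within its Dex range of 3189 to 4866, and Mt2 had 3226, within 2873 to 3762. Outside the CCL1 arrays number 1 was above number 2 for both Per1 and Mt2. Per1 had 72.1 against 22.05 in unstimulated cells and 51.3 against 20.6 with IL-9. Mt2 had 3321 against 2563 and 4165 against 3226. Klf9, Zbtb16 and Il7r were low in all arrays. The libraries labelled unstimulated 1, IL-9 1 and CCL1 1 thus held signals of Tsc22d3, Fkbp5, Ddit4 and Dusp1 close to or above those of the Dex arrays, and Dex was also compared within the arrays of each number. The array Dex 2 stood apart for some transcripts. Ncl (nucleolin), Nop58 and Ddx21, listed for ribosome biogenesis, were lowest there at 1309, 258 and 178. Nolc1 of the same list was not, with 585 in Dex 2 and 541 in Dex 1. Among T-lineage markers Ptprc (CD45) and Cd3g were lowest in Dex 2 at 1510 and 531, while Thy1 (1525) and Cd3e (298) were highest there. The array CCL1 2 is of another array type and comes from a table of its own, and it was left out of the tests, which used 11 arrays, unless 12 are named. Of the 11 T-lineage markers with a probe set, 7 (Cd3d, Cd3e, Cd3g, Lat, Zap70, Thy1 and Ptprc) were above a signal of 50 in every array, whereas Cd247, Cd2, Cd5 and Ptcra were low. Markers of B cells, myeloid cells, erythroid cells and fibroblasts reached at most 24.6 in any array.

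Promoter sequence is shown for Mcl1, whose 6 probe sets were all measurable, and for the Bcl2l1 start that alone among its 3 windows held a motif match, because Dex acts through the glucocorticoid receptor and IL-9 through STAT factors. The sequences are the 250 bases upstream of the transcript start from RefSeq on GRCm38.p6, the mouse assembly, written 5′ to 3′ on the strand of the gene. Capitals mark matches on either strand to the kappa-B core (GGG, any 5 bases, then CC), part of what NF-kB recognises.
Mcl1, chr3:95658471-95658720, plus strand: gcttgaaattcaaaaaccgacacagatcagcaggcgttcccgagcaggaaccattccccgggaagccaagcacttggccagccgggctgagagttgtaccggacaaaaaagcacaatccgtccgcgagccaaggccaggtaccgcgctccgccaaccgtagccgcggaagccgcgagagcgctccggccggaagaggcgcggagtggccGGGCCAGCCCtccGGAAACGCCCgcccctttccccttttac
Bcl2l1, chr2:152830718-152830967, minus strand: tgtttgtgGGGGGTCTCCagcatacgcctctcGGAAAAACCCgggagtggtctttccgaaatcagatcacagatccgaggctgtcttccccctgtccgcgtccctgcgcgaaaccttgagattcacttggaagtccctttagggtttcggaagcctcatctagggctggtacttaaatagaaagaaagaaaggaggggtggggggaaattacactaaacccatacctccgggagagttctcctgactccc
All 6 genes had at least 1 window, 8 in all. The STAT palindrome TTCNNNGAA was in 0 of the 8 windows, against 7.02% of 32851 mouse promoter windows of the same length. The glucocorticoid receptor half-site AGAACA was also in 0 of 8, against 16.1%, and the kappa-B core was in 6 of 8, against 45.8%. Both strands were searched, overlapping matches were counted separately, and a match or its absence describes only these letters in these windows.

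Mcl1, the short-lived guardian needed by developing and mature lymphocytes, was measured by 6 probe sets that all passed the filter on low signals. Its brightest set (1448503_at) varied 1.54-fold over the 12 arrays, between 409 in CCL1 1 and 631 in Dex+IL-9 2, with a median of 496. It had 528 and 631 in Dex+IL-9, 513 and 479 in Dex+CCL1, 432 and 525 in Dex, 505 and 475 in IL-9, 409 and 517 in CCL1, and 487 and 473 in unstimulated cells. Dex+IL-9 held the 2 highest arrays, and the other 5 groups overlapped one another.

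The Mcl1 group means were 580 ± 73.4 in Dex+IL-9, 496 ± 23.8 in Dex+CCL1, 479 ± 66.2 in Dex, 490 ± 21.2 in IL-9, 463 ± 76.9 in CCL1 and 480 ± 9.96 in unstimulated cells (SD, n = 2 each). By level the order was Dex+IL-9, Dex+CCL1, IL-9, unstimulated, Dex and CCL1. Neighbours in this order lay within the larger of their SDs of each other, except Dex+IL-9, which was above Dex+CCL1 by more than its SD. The SD of log2 values was 0.153 over the 12 arrays and 0.149 within groups, so array-to-array spread within a treatment was nearly as wide as that over the whole experiment.

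The other 5 Mcl1 sets spanned 172 to 274 (1416881_at), 160 to 243 (1437527_x_at), 133 to 231 (1456243_x_at), 122 to 175 (1416880_at) and 111 to 175 (1456381_x_at). Their profiles over arrays were only partly alike. The brightest set and 1416881_at both had their highest signal in Dex+IL-9 2 (Pearson r = 0.819 over 12 arrays, a description of 2 sets sharing the same arrays). Against the brightest set, r was -0.153 for 1437527_x_at, 0.165 for 1456243_x_at, 0.177 for 1456381_x_at and 0.589 for 1416880_at. Sets whose names end in x_at can hold probes that match other transcripts, in the maker's naming.

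**Figure D1:**
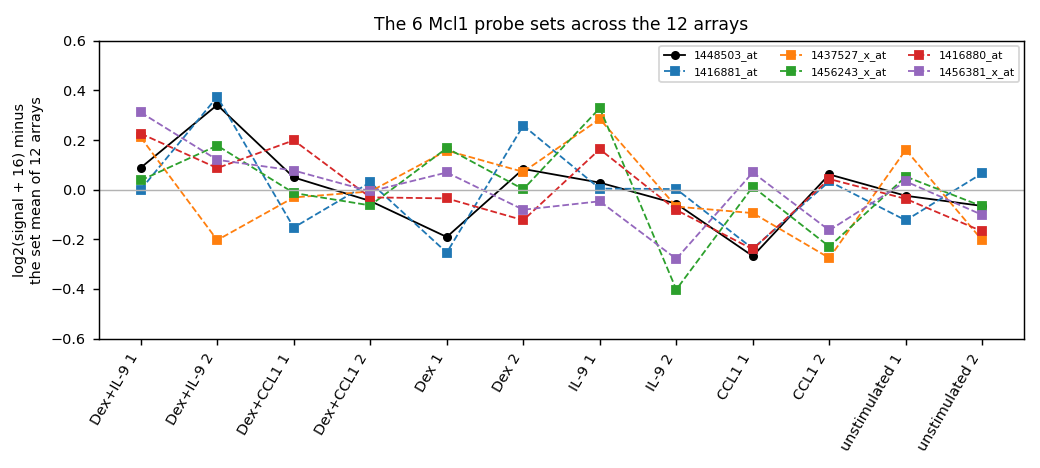
The 6 Mcl1 probe sets in the 12 arrays, each as log2(signal + 16) minus its own mean over the arrays; groups run along the horizontal axis with array 1 before array 2. Sets part company in single arrays such as IL-9 1 and IL-9 2, and no group sits apart in all 6.

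Bcl2l1 encodes BCL-XL, the survival form, and by alternative splicing the short BCL-XS, which promotes death; the files do not say which form a probe set reads. Its brightest set (1420888_at) had 59.6 and 51.5 in Dex+IL-9, 68.2 and 46.5 in Dex+CCL1, 51.9 and 70.3 in Dex, 35.0 and 77.3 in IL-9, 44.4 and 38.8 in CCL1, and 104 and 50.2 in unstimulated cells. The highest array, unstimulated 1, was 2.96-fold above the lowest, IL-9 1. All 6 groups overlapped except that both CCL1 arrays lay below those of Dex+IL-9, Dex+CCL1, Dex and unstimulated cells. The SD within groups, 0.391 log2, was no smaller than that over all 12 arrays, 0.349.

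Means of this Bcl2l1 set were 55.5 ± 5.77 in Dex+IL-9, 57.3 ± 15.3 in Dex+CCL1, 61.1 ± 13.1 in Dex, 56.2 ± 29.9 in IL-9, 41.6 ± 3.999 in CCL1 and 76.9 ± 37.7 in unstimulated cells (SD, n = 2). From high to low this is unstimulated, Dex, Dex+CCL1, IL-9, Dex+IL-9 and CCL1. Only the last step of this order, from Dex+IL-9 down to CCL1, exceeded the SDs of both neighbours. The set 1420887_a_at ran from 14.1 in Dex+CCL1 2 to 50.1 in unstimulated 1. The set 1426191_a_at ran from 11.8 in Dex+CCL1 1 to 29.2 in CCL1 2 and was the one with the smallest within-group SD of the 3, 0.126 log2. It had 18.2 and 14.7 in Dex+IL-9, 11.8 and 12.2 in Dex+CCL1, 15.02 and 18.7 in Dex, 19.8 and 27.0 in IL-9, 22.7 and 29.2 in CCL1, and 15.8 and 18.9 in unstimulated cells. Here both IL-9 arrays lay above both Dex+IL-9 arrays and both CCL1 arrays above both Dex+CCL1 arrays, while Dex overlapped unstimulated. The log2 difference was -0.27 for Dex+IL-9 versus IL-9 and, with CCL1 1 alone, -0.47 for Dex+CCL1 versus CCL1. In the brightest set these differences were 0.05 and 0.26, in the other direction. The 3 sets disagreed: 1420888_at and 1426191_a_at had r = -0.204 over 12 arrays, and 1420887_a_at and 1426191_a_at had r = 0.611. The fourth set, 1426050_at, did not pass the filter.

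Bcl2l2, which encodes BCL-W, was represented after filtering by 1 of its 4 sets. That set (1423572_at) had 36.3 and 45.2 in Dex+IL-9, 41.3 and 34.4 in Dex+CCL1, 34.6 and 35.3 in Dex, 22.0 and 42.4 in IL-9, 28.8 and 36.0 in CCL1, and 37.7 and 43.8 in unstimulated cells. Both Dex arrays were below both unstimulated ones, and IL-9 1 was the lowest array of all. The group means were 40.8 ± 6.30 in Dex+IL-9, 37.9 ± 4.90 in Dex+CCL1, 35.0 ± 0.488 in Dex, 32.2 ± 14.4 in IL-9, 32.4 ± 5.07 in CCL1 and 40.7 ± 4.32 in unstimulated cells (SD, n = 2). By level the order was Dex+IL-9, unstimulated, Dex+CCL1, Dex, CCL1 and IL-9, and no neighbours differed beyond the larger SD.

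Bcl2, the founding survival gene of the family, gave no usable signal. Its single set (1422938_at) had 2.74 and 6.89 in Dex+IL-9, 1.32 and 7.89 in Dex+CCL1, 3.90 and 6.69 in Dex, 9.63 and 3.07 in IL-9, 0.516 and 3.42 in CCL1, and 0.760 and 8.36 in unstimulated cells. These signals had a median of 3.66 and did not pass the filter, set at the 40th percentile of the mean log2 values, or a signal of 6.32. Group means were not ordered for it. With it, 5 of the 17 sets did not pass, the others being 3 of Bcl2l2 and 1 of Bcl2l1.

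Bak1 encodes BAK, the effector that sits permanently in the mitochondrial membrane. Its brightest set (1418991_at) had 44.8 and 45.9 in Dex+IL-9, 59.97 and 55.5 in Dex+CCL1, 38.1 and 80.8 in Dex, 52.0 and 63.0 in IL-9, 49.6 and 57.5 in CCL1, and 46.7 and 69.1 in unstimulated cells. The Dex group held both the lowest array, Dex 1, and the highest, Dex 2, which is the array that stood apart. Both Dex+IL-9 arrays were below those of IL-9, CCL1, unstimulated and Dex+CCL1, the nearest being unstimulated 1 with 46.7 against 45.9. Group means were 45.3 ± 0.82 in Dex+IL-9, 57.7 ± 3.16 in Dex+CCL1, 59.5 ± 30.2 in Dex, 57.5 ± 7.80 in IL-9, 53.6 ± 5.60 in CCL1 and 57.9 ± 15.8 in unstimulated cells (SD, n = 2). In the order Dex, unstimulated, Dex+CCL1, IL-9, CCL1 and Dex+IL-9, only the step down to Dex+IL-9 exceeded the SDs of both neighbours. The second set, 1425716_s_at, ran from 11.8 in Dex 1 to 29.0 in IL-9 1, with r = 0.435 to the first over 12 arrays and 0.31 without Dex 2.

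**Figure D2:**
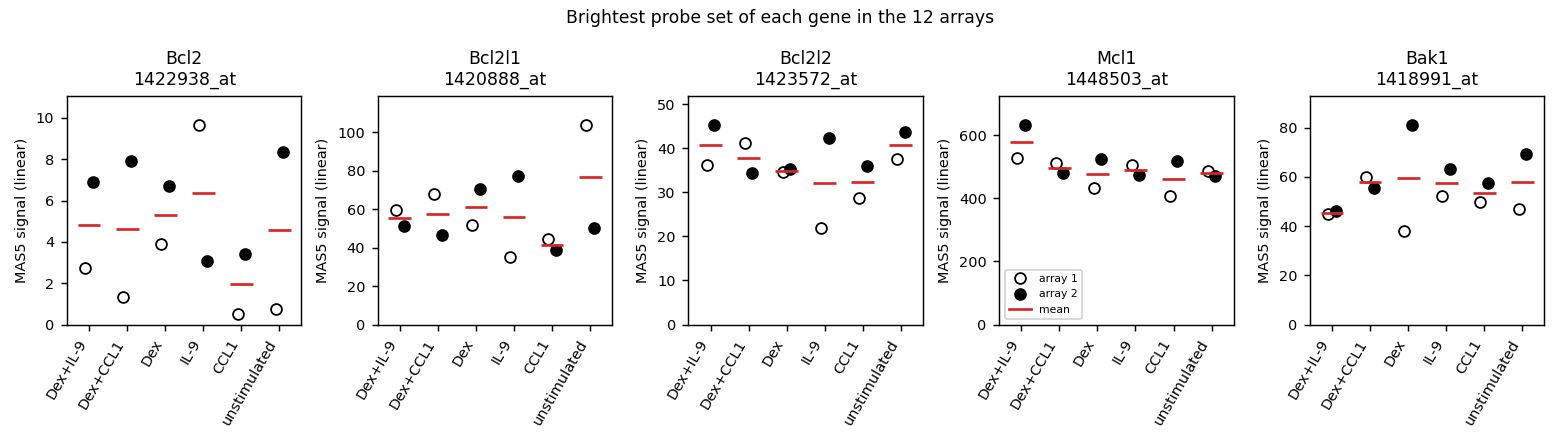
MAS5 signal (linear, from 0) of the brightest probe set of each gene in the 6 groups; open circles are array 1, filled circles array 2, and the line is the mean of the 2. The arrays of 1 group are often as far apart as the groups: Bak1 had 38.1 and 80.8 in Dex.

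The first question was whether Dex changed these genes as the arrays are labelled. No member passed the threshold (adjusted p under 0.05, limma, Benjamini-Hochberg over the 13575 tested probe sets) when Dex was averaged over cells with no cytokine, IL-9 and CCL1, and 0% of all probe sets were called. Mcl1 differed by 0.16 (SE 0.10, 95% interval -0.05 to 0.37), which for signal + 16 is 0.967- to 1.30-fold. For Bcl2l2 the difference was 0.12 (-0.19 to 0.43), for Bcl2l1 0.03 (-0.42 to 0.48) and for Bak1 -0.03 (-0.39 to 0.33), each with limma adjusted p = 1. Without the array Dex 2 the average was 0.12 for Mcl1, 0.12 for Bcl2l2, -0.03 for Bcl2l1 and -0.17 for Bak1, and Mcl1 was at 0.11 with CCL1 2 added. Over the 12 member sets that passed the filter, which belong to 4 genes, the median was 0.05, and it was 0.00 over all probe sets. By unadjusted p under 0.05, 0 of 12 members and 1.53% of all sets were counted. The single comparisons Dex versus unstimulated, Dex+IL-9 versus IL-9 and Dex+CCL1 versus CCL1 called 0 members and 0% of all probe sets each. In Dex+IL-9 versus IL-9, Mcl1 set 1456381_x_at had 175 and 151 against 133 and 111, a difference of 0.38 (SE 0.17, limma adjusted p = 1).

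Within the arrays numbered 2, where the arrays labelled without Dex had low Tsc22d3, Fkbp5, Ddit4 and Dusp1, 0.597% of all probe sets were called (81) and 0 of the 12 members. Mcl1 had 631, 479 and 525 in the Dex arrays numbered 2 (Dex+IL-9, Dex+CCL1 and Dex), against 475, 517 and 473 in those without Dex (IL-9, CCL1 and unstimulated). These sets of 3 overlapped because CCL1 2 lay above Dex+CCL1 2. In the model of 11 arrays Mcl1 differed by 0.23 (SE 0.13, 95% interval -0.05 to 0.52, limma adjusted p = 0.55). This value was 0.15 with CCL1 2 added and 0.14 without IL-9 2. For Bcl2l1 it was -0.09 (-0.76 to 0.57, adjusted p = 0.939), for Bcl2l2 -0.13 (-0.54 to 0.29, adjusted p = 0.841) and for Bak1 -0.15 (-0.60 to 0.30, adjusted p = 0.821), all from limma. The direction of Bcl2l1 turned to 0.03 with the array CCL1 2 added. Bak1 moved to -0.42 without the array Dex 2. All 6 Mcl1 sets, repeated readings of 1 gene on the same arrays, had a positive difference, between 0.13 and 0.32. Of all probe sets 47.7% had a positive difference. The member median, over 12 sets of which 6 read Mcl1, was 0.13, against -0.01 over all probe sets. With CCL1 2 added the 6 sets lay between 0.05 (1416880_at) and 0.27 (1456243_x_at). By unadjusted p under 0.05 the count was 1 of 12 members, Mcl1 set 1456243_x_at (0.32, SE 0.15, limma adjusted p = 0.472), and 10.5% of all sets. In the arrays numbered 1 the Dex comparison called 0 members and 0% of all probe sets, with Mcl1 at 0.07, Bcl2l1 at 0.08, Bcl2l2 at 0.24 and Bak1 at -0.05. There the 6 Mcl1 sets lay between -0.07 (1456243_x_at) and 0.17 (1416880_at).

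Over the 12 arrays, 3 of 12 members had no overlap between the 3 Dex and the 3 other arrays numbered 2, against 12% of all probe sets. These were Mcl1 sets 1456243_x_at (206, 172 and 181 in Dex+IL-9, Dex+CCL1 and Dex, against 133, 152 and 171 in IL-9, CCL1 and unstimulated) and 1456381_x_at (151, 137 and 130, against 111, 121 and 127), and Bcl2l1 set 1426191_a_at (14.7, 12.2 and 18.7, against 27.0, 29.2 and 18.9). The margins between the nearest arrays were small for all of them. Without overlap between all 6 Dex and all 6 other arrays there were 0 members, against 0.0884% of all sets.

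Omitting the 3 arrays numbered 1 without Dex from the 12 gave a Dex average with 60 probe sets called and again 0 members, and Mcl1 at 0.07. Leaving out Dex 2 as well gave 151 called, 0 members, Mcl1 at 0.03, Bcl2l1 at 0.02, Bcl2l2 at -0.08 and Bak1 at -0.34 (SE 0.14, limma adjusted p = 0.414). In that setting 4 of 12 members had an unadjusted p under 0.05 and 10.9% of all sets did. They were Bak1 1418991_at, Bcl2l1 1426191_a_at at -0.42 (SE 0.16, limma adjusted p = 0.335), Mcl1 1456243_x_at at 0.31 and Mcl1 1456381_x_at at 0.29. Both settings were chosen after the data were seen.

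The arrays labelled without Dex were then compared by number, 1 minus 2, and 0.796% of all probe sets (108) but 0 members were called. Mcl1 had 505, 409 and 487 in IL-9 1, CCL1 1 and unstimulated 1, against 475 and 473 in IL-9 2 and unstimulated 2, a difference of 0.02 (SE 0.13, 95% interval -0.27 to 0.31). Bcl2l2 differed by -0.39 (-0.80 to 0.02, limma adjusted p = 0.575), Bak1 by -0.36 (-0.81 to 0.09, limma adjusted p = 0.674) and Bcl2l1 by -0.09 (-0.75 to 0.58). Mcl1 set 1456243_x_at differed by 0.42 (SE 0.15, limma adjusted p = 0.35), the 1 member with an unadjusted p under 0.05, as had 9.17% of all sets. In the Dex arrays the same contrast called 0 members and 0.0221% of all sets, and the lowest member p belonged to Mcl1 set 1416881_at (-0.36, SE 0.11, limma adjusted p = 0.17). This comparison and Dex within number 2 share the arrays numbered 2 without Dex, so their values are given side by side only.

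**Figure D3:**
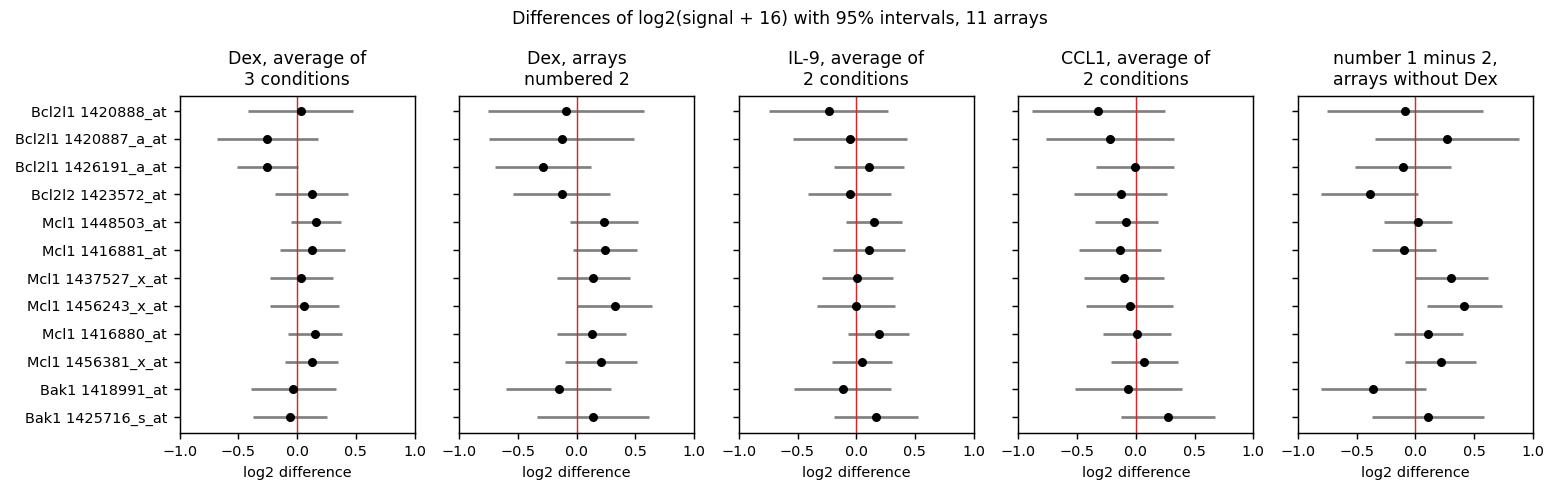
Differences of log2(signal + 16) with 95% intervals for the 12 member sets that passed the filter, in 5 comparisons over 11 arrays. Most intervals cross 0, as for Mcl1 1448503_at under Dex in arrays numbered 2 (-0.05 to 0.52), and no set passed the threshold.

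IL-9, a survival cytokine for T lymphoma cells, was compared next. Averaged over cells without and with Dex, 0 of 12 members were called, against 0.0958% of all probe sets (13). Mcl1 differed by 0.15 (SE 0.11, 95% interval -0.09 to 0.39, limma adjusted p = 0.749), Bcl2l1 by -0.23 (-0.74 to 0.27, limma adjusted p = 0.823), Bak1 by -0.12 (-0.53 to 0.29) and Bcl2l2 by -0.06 (-0.41 to 0.29). Without the array Dex 2 Bak1 was at 0.09 and Mcl1 at 0.22. By unadjusted p under 0.05 there were 0 members, against 8.57% of all sets. IL-9 versus unstimulated and Dex+IL-9 versus Dex each called 0 members and 0.0221% of all sets. Between Dex+IL-9 and Dex, Mcl1 had 528 and 631 with Dex+IL-9, against 432 and 525 with Dex. The difference was 0.27 (SE 0.15, 95% interval -0.07 to 0.61, limma adjusted p = 0.838). These arrays did not overlap, by the small margin of 528 against 525, and the share of all probe sets doing so was not counted. The other Mcl1 sets differed here by -0.11 (1437527_x_at) to 0.24 (1416880_at). Over 12 arrays, 0 members lacked overlap between the 4 IL-9 arrays and the 4 arrays without cytokine, against 6.28% of all sets.

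CCL1 was compared in the same way, with a single CCL1 array without Dex that borrowed its spread from the rest. Averaged over cells without and with Dex, 0 members were called, against 0.00737% of all probe sets (1). Mcl1 differed by -0.08 (SE 0.12, 95% interval -0.35 to 0.18), Bcl2l1 by -0.32 (-0.89 to 0.25, limma adjusted p = 0.934), Bcl2l2 by -0.13 (-0.52 to 0.26) and Bak1 by -0.06 (-0.52 to 0.39). Bak1 was at 0.15 without Dex 2. By unadjusted p under 0.05 the count was 0 members, against 5.6% of all sets. CCL1 versus unstimulated called 0 members and 0% of all sets, and Dex+CCL1 versus Dex 0 members and 0.00737%. In CCL1 versus unstimulated Bcl2l1 had 44.4 and 38.8, against 104 and 50.2, and the model, which held the first CCL1 array alone, gave -0.56 (SE 0.40, 95% interval -1.44 to 0.32). Over 12 arrays, 0 members lacked overlap between the 4 CCL1 arrays and the 4 without cytokine, against 4.99% of all sets. The IL-9 and CCL1 comparisons share the unstimulated and Dex arrays.

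Whether the treatments acted differently on these genes in each other's presence was tested as differences of differences. For IL-9 with Dex minus without, CCL1 with Dex minus without, and Dex in number 2 minus number 1, 0 of 12 members were called and 0 had an unadjusted p under 0.05, with lowest limma adjusted p-values of 1, 0.997 and 0.532. Over all probe sets the share called was 0%, 0% and 0.206% in these 3 tests, and the share with an unadjusted p under 0.05 was 1.58%, 2.87% and 10.1%. A missed threshold does not show that the genes did not change: under Dex in arrays numbered 2 the 95% interval reached 0.52 log2 for Mcl1 and ran from -0.76 to 0.57 for Bcl2l1.

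Of the 39 other genes listed for the pathway, 29 had a probe set with 1 symbol and 23 passed the filter. Bcl2l11, which encodes the BH3-only protein BIM, was called. It had 333, 297 and 674 in the Dex arrays numbered 2 (Dex+IL-9, Dex+CCL1 and Dex), against 95.5, 134 and 153 in those without Dex (IL-9, CCL1 and unstimulated), with no overlap. The difference was 1.74 (SE 0.17, limma adjusted p = 0.000357), and it was between 1.50 and 1.84 when any 1 array was left out (highest adjusted p = 0.013). In the arrays numbered 1 it had 269, 264 and 374 in the Dex arrays, against 330, 338 and 420 in IL-9 1, CCL1 1 and unstimulated 1. Arrays labelled without Dex differed accordingly by number, 1 minus 2, by 1.57 (SE 0.17, limma adjusted p = 0.000571), and the Dex average as labelled was 0.45 (SE 0.31, limma adjusted p = 1). Without the arrays numbered 1 labelled without Dex, and with CCL1 2 included, the Dex average of Bcl2l11 was 1.37. Its own difference from those of the members was not tested.

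**Figure D4:**
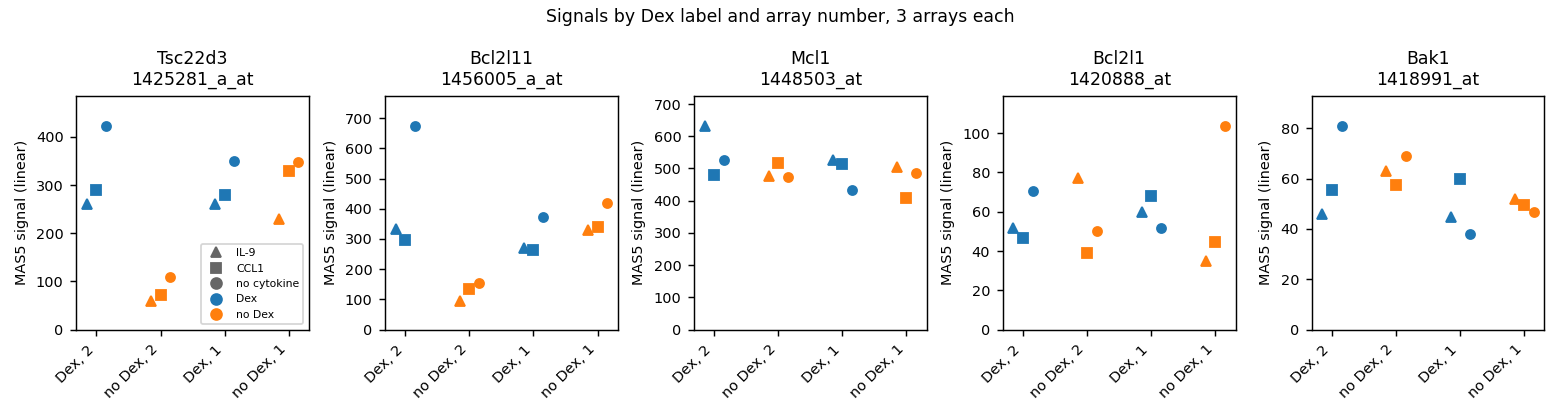
MAS5 signal (linear, from 0) of Tsc22d3, Bcl2l11, Mcl1, Bcl2l1 and Bak1 in arrays with and without Dex by label, for the arrays numbered 2 and then 1; triangles are IL-9, squares CCL1 and circles no cytokine, 3 arrays per column. Tsc22d3 and Bcl2l11 are low in the 3 arrays numbered 2 without Dex (Bcl2l11 95.5 to 153). Within each number, the Dex and no-Dex columns of Mcl1, Bcl2l1 and Bak1 overlap. Bak1 without Dex does not overlap between numbers, with 46.7 to 52.0 in number 1 and 57.5 to 69.1 in number 2.

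Among BH3-only genes 4 of 8 passed the filter, and besides Bcl2l11 these were Bad, Bid and Bbc3 (PUMA), which oppose the guardians. Under Dex averaged as labelled Bad differed by 0.09, Bid by -0.08 and Bbc3 by -0.04, and within number 2 by 0.06, -0.08 and 0.08, none past the threshold. Bmf, Bik, Hrk and Pmaip1 did not pass the filter. Of 9 further BCL2 relatives 2 passed, Bcl2l13 (0.06) and Bcl2l14 (0.13), with none called.

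Genes that regulate members counted 8 of 11, none called in any of the 5 comparisons: Usp9x, which deubiquitinates MCL1, was at -0.21 in the Dex average, Bnip3, a mitochondrial BH3-like protein, at -0.11 and Huwe1, a ubiquitin ligase for MCL1, at -0.11. Usp9x had 98.3, 87.5 and 30.9 in Dex+IL-9 2, Dex+CCL1 2 and Dex 2, against 111, 76.2 and 120 in IL-9 2, CCL1 2 and unstimulated 2, and its lowest array is the one that stood apart. Downstream of the pore 9 of 11 passed with none called, among them Xiap, a caspase inhibitor (-0.23 in the Dex average), Apaf1, the apoptosome scaffold (0.16), and Birc3, an inhibitor-of-apoptosis gene (0.14). Xiap had 229, 176 and 81.3 in Dex+IL-9 2, Dex+CCL1 2 and Dex 2, against 220, 168 and 261 in IL-9 2, CCL1 2 and unstimulated 2, again lowest in Dex 2. In the same order of arrays Birc3 had 205, 208 and 215, against 155, 156 and 143, without overlap, as had 12% of all probe sets. Its Dex difference within number 2 was 0.52 (SE 0.14, limma adjusted p = 0.2). Number 1 minus 2 without Dex gave 0.43 for Birc3 (limma adjusted p = 0.276). Over the 23 genes the median Dex difference was 0.04 as labelled and 0.03 within number 2, against 0.00 and -0.01 over all probe sets.

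The genes whose profiles were most like each member's over the 12 arrays were found among 7503 genes by Pearson correlation, as a description without a test. For Bcl2l1 they were Lclat1 (r = 0.909) and Eps8l2 (0.901), for Bcl2l2 Zdhhc9 (0.921) and Igsf8 (0.917), for Mcl1 Gid8 (0.834) and a set annotated to Mir425 (0.827), and for Bak1 Ing1 (0.939) and Tcf3 (0.895). Without Dex 2 the values for Bak1 were 0.899 and 0.863. These arrays share their scaling and the features described above, and these are the highest of 7503 values for each member.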

How the data were processed

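The deposited tables, of 11 arrays and of 1, hold linear signal intensity, and the submitters' processing notes name MAS5. Every array had a mean of 100 (one 100.1) once 2% was trimmed at either end, so a shift common to all genes is hidden by this scaling. The version of MAS5 is not given in the sources used here. Probe sets were named only where the platform annotation gave 1 symbol (20393 sets, 691 had several and 1606 none).

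After removal of 64 control probe sets, signals were transformed as log2(signal + 16), which understates folds of low signals, and the 13575 of 22626 sets with a mean above the 40th percentile were kept. The brightest set stands for a gene, with the others beside it. Models were fitted with limma 3.58.1 (R 4.3.3) over 11 arrays with trended empirical Bayes moderation, and p-values were adjusted by Benjamini-Hochberg across the kept sets (threshold 0.05). One model had 1 mean per group (5 residual, 6.47 prior degrees of freedom). The other had additive cytokine terms and Dex by array number (5 residual, 6.96 prior). Both were tested on simulated data. Same-numbered arrays of different groups did not meet the rule for pairing.

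The named pathway genes were those past the threshold and at most 3 others per role with the largest Dex difference as labelled, and for each member the 2 most similar genes. The array values of Usp9x, Xiap and Birc3 were added after they were seen. Members, gene lists and comparisons were chosen with earlier results of these data known. The alternatives tried were quantile normalization, median centring, pseudocounts 1 and 64, a filter at the 60th percentile or none, no trend, a replicate block, CCL1 2 added and each array left out. Settings without the arrays numbered 1 labelled without Dex, also without Dex 2, and with the arrays numbered 2 alone were chosen after seeing the data. These settings included CCL1 2. No value column was without a sample (0).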

Additional observations from a re-analysis of the deposited data

How the results depend on the processing

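In the 5 comparisons (Dex averaged as labelled, Dex in number 2, number 1 minus 2 without Dex, IL-9 and CCL1 averaged), the count of members called was 0 in all 110 fits of the main setting and its 23 alternatives, with a lowest member adjusted p (limma) of 0.166. The differences of 4 brightest member sets and Bcl2l11 gave 520 values under alternatives. Of these 483 kept direction and call, 35 turned direction from main values of at most 0.23, and 2, both of Bcl2l11, passed the threshold only in the alternative. The cause was not tested. With CCL1 2 added, Dex in number 2 was 0.0347 for Bcl2l1, and number 1 minus 2 was -0.0675 for Mcl1 and 0.0408 for Bcl2l1. With the arrays numbered 2 alone, which include CCL1 2, Bcl2l1 was again at 0.0347 under Dex. In this setting IL-9 gave 0.0698 for Bcl2l1 and 0.1103 for Bcl2l2. Without the arrays numbered 1 labelled without Dex, the Dex average was -0.0762 for Bcl2l2, IL-9 gave 0.1976 for Bcl2l1 and 0.0585 for Bcl2l2, and CCL1 0.0909 for Mcl1. Without Dex 2 as well, these were -0.0795, 0.2844, 0.0634 and 0.1594, with Bak1 at 0.0375 for IL-9 and 0.1179 for CCL1. The replicate block, with same-numbered arrays as pairs (correlations -0.005 to 0.35 over 15 group pairs, 10 above 0.1), changed no call of a member and turned Bak1 under CCL1 to 0.0074. It gave 18 calls over all probe sets for IL-9, against 13 without it.

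Leaving out 1 array at a time, the Dex average ranged from -0.174 to 0.1059 for Bak1 and from -0.1133 to 0.1773 for Bcl2l1, and Dex in number 2 from -0.4221 to 0.0005 for Bak1 and from -0.5774 to 0.3938 for Bcl2l1. Number 1 minus 2 ranged from -0.0735 to 0.115 for Mcl1 and from -0.5713 to 0.3999 for Bcl2l1. IL-9 ranged from -0.3269 to 0.093 for Bak1 and from -0.2125 to 0.0974 for Bcl2l2, and CCL1 from -0.2744 to 0.1455 for Bak1 and from -0.5539 to 0.1299 for Bcl2l11. Counts over all probe sets depended more on single arrays. Against 81 for Dex in number 2 they ran from 29 to 117 without 1 array, and 44 with no filter. Against 108 for number 1 minus 2 they ran from 46 to 216, with 65 unfiltered and 199 with CCL1 2. IL-9 gave 5 to 358 against 13, and CCL1 1 to 66 against 1, each highest without Dex 1. CCL1 2 added gave 3 for CCL1. The low signals of Bcl2, which did not pass the filter, limit what can be seen of this gene.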
